A study of Homo sapiens with 9 samples.

Results

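The 9 genes described here encode thrombomodulin and its partners in the protein C pathway, and the initiator of coagulation with TFPI and its relative TFPI2. They also encode the plasminogen activators with a receptor and an inhibitor. They were THBD, PROCR, F3, TFPI, TFPI2, PLAU, PLAUR, PLAT and SERPINE2, selected by name from the 58735 genes listed, and they were proposed with the measured expression of these same libraries known. Their counts and fold changes in the 3 groups are therefore given as a description, without a p-value. All 9 passed the expression filter, which left 16350 genes.

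RNA was sequenced from SKOV3, an established ovarian cancer cell line, in 3 groups of 3 libraries. CDK9 is the kinase of P-TEFb, which releases RNA polymerase II into elongation, and the receptor tyrosine kinase ALK was inhibited in 1 group. The groups were cells expressing WT CDK9 under basal conditions, cells expressing WT CDK9 after 24 h with an ALK inhibitor (Ai), and cells expressing Tyr19Phe CDK9 (Y19F), in which phenylalanine replaces tyrosine at residue 19. Elsewhere in the study such stable lines carried CDK9 put back after its depletion, and whether this holds for these libraries, or whether a line is 1 clone, is not given. All groups share the SKOV3 background and an introduced CDK9, the Y19F cells were given no inhibitor, and the inhibitor and its dose are not given for this experiment. The comparisons set the RNA of cells with the kinase inhibited, or with this tyrosine of CDK9 replaced, beside that of WT cells. WT and Y19F cells are separate lines, so the replacement and any other difference between the lines cannot be told apart. Y19F and Ai cells differ in both the line and the inhibitor. It is not stated whether the libraries of a group came from separate cultures, so every p-value below measures only the spread between these libraries, which may be technical.

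Coagulation starts when tissue factor, encoded by F3, binds factor VII. TFPI blocks this complex, and TFPI2, a relative of TFPI, inhibits plasmin and other serine proteases. Thrombomodulin (THBD) turns thrombin from a clotting enzyme into an activator of protein C, a step helped by the endothelial protein C receptor (PROCR). Urokinase (PLAU), held at the cell surface by its receptor PLAUR, and tissue plasminogen activator (PLAT) convert plasminogen into plasmin, and SERPINE2 (protease nexin-1) inhibits thrombin, urokinase and plasmin. These proteins are best known from vessel walls and blood, but carcinoma cells also make tissue factor and urokinase.

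The upstream sequences of 3 of these genes are shown because the genes differed between groups in opposite or unequal ways. Each line gives the 250 bases before the RefSeq start of the canonical transcript (GRCh38.p14), at chr1:94541760-94542009 on the minus strand for F3, chr7:93890754-93891003 on the minus strand for TFPI2 and chr10:73910882-73911131 on the plus strand for PLAU. The deposited spans of these genes begin further upstream than these starts, so that the PLAU stretch lies wholly, and the others partly, within the gene's span. Capitals mark matches on either strand to AP-1 (TGANTCA), CRE (TGACGTCA), GC box (GGGCGG) and TATA box (TATAAA) letters.
F3: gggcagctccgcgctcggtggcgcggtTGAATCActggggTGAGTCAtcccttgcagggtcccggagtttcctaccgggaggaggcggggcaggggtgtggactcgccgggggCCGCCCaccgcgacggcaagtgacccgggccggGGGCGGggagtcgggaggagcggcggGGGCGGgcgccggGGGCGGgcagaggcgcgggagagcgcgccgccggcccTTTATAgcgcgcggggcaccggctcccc
TFPI2: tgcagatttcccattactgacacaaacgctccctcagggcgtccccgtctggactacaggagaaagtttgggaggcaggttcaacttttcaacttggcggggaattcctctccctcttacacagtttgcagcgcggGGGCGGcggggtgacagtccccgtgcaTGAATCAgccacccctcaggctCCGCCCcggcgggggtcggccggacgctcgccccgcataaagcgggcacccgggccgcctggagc
PLAU: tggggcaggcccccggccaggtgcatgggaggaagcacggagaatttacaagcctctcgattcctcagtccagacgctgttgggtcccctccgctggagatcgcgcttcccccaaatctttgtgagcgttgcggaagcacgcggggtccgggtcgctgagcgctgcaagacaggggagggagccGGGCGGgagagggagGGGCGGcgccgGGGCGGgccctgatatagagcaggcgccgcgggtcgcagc

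The F3 stretch held AP-1 letters 223 and 210 bases before the start, 4 GC boxes, and TATA letters on the opposite strand 28 bases before it. TFPI2 had AP-1 letters 87 bases before its start and GC boxes at 114 and 65 bases. PLAU had GC boxes at 66, 51 and 40 bases before its start, and no AP-1 letters in this window. Distances run from the first printed base of a match, and no matches overlapped. Windows of 300 bases, which also take in the first 50 bases after the start, were matched for 7 of the 9 genes. THBD matched no entry, and PLAT was left out. The start of the SERPINE2 window lay 646 bases from its canonical start. AP-1 letters stood in 3 of these 7 windows and in 7.71% of the 35116 promoters in the RefSeq table, GC boxes in 5 of 7 and 45% of all, TATA letters in 2 of 7 and 11.5% of all, and CRE letters in 0 of 7 and 1.85% of all. GC content was 77.3% for F3, 65.3% for TFPI2 and 70% for PLAU, against a median of 58.7% over all promoters. These are matches of letters, not sites shown to be bound.

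Total counts ranged from 18939449 to 19731228 in WT, from 18169050 to 20974903 in Ai and from 26485891 to 29320184 in Y19F libraries, so that depth and the Y19F group cannot be told apart. Levels are given as CPM, counts per 1000000 after TMM scaling, whose factors lay between 0.9864 and 1.009. A count of 3 corresponded to between 0.101 and 0.165 CPM. CDK9 itself was at 47.6 to 49.6 CPM in WT, 43.7 to 47.2 in Ai and 52.3 to 59.5 in Y19F libraries, a level that does not separate introduced from endogenous RNA. Of 10 epithelial markers 9 passed the filter, with a summed level of 5316 to 5506 CPM in WT, 5843 to 5982 in Ai and 5160 to 5353 in Y19F libraries. Single epithelial markers went both ways within these sums. For Ai against WT, ERBB2 and KRT19 were called higher, at log2 fold changes of 0.54 and 0.21, and KRT7 lower, at -0.35. For Y19F against WT, KRT8 and KRT18 were called higher, at 0.38 and 0.39, and KRT19, EPCAM and ERBB2 lower, at -1.24, -0.82 and -0.29. Of 8 endothelial markers only KDR passed the filter. The 8 summed to 1.13 to 3.00 CPM in WT, 1.65 to 2.47 in Ai and 3.72 to 4.97 in Y19F libraries, and EMCN was at 0 in every library. KDR had 16, 40 and 37 counts in WT, 40, 14 and 24 in Ai and 66, 74 and 87 in Y19F libraries. Its means were 1.63, 1.30 and 2.71 CPM in the same order, and it was not called in any comparison. CDH5, which did not pass the filter, had 0 counts in each WT library, 0, 1 and 0 in Ai and 14, 35 and 17 in Y19F libraries. Of 8 platelet and leukocyte markers 2 passed the filter, with sums from 4.01 to 7.07 CPM over all libraries and PF4, PPBP and GP9 at 0.

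Of the 9 genes, THBD differed most between the groups. THBD (ENSG00000178726) lies at chr20:23045633-23049741 on the minus strand, in a single exon. Its counts ran from 225 to 299 in WT, from 619 to 657 in Ai and from 506 to 577 in Y19F libraries. In CPM, THBD was at 11.5, 15.8 and 14.3 in WT libraries 1 to 3, at 29.3, 34.7 and 33.9 in Ai libraries, and at 18.2, 20.5 and 19.1 in Y19F libraries. The 3 groups did not overlap, and the order was WT, then Y19F, then Ai. Mean levels were 13.8 ± 2.14 CPM (SD, n = 3) in WT, 32.6 ± 2.88 in Ai and 19.3 ± 1.17 in Y19F cells. THBD RNA was thus 2.36-fold higher in Ai and 1.39-fold higher in Y19F than in WT cells. The log2 fold changes were 1.24 ± 0.12 (SE) for Ai against WT, 0.48 ± 0.12 for Y19F against WT and -0.76 ± 0.12 for Y19F against Ai. In the fit without WT library 1, which had the lowest THBD level, the Y19F difference from WT was 0.36 and no longer passed the threshold. In bulk RNA, fewer cells expressing a gene and less of its RNA per cell cannot be told apart. The 8 endothelial markers summed higher in Y19F than in WT libraries, as given above. Mean CPM was higher for some of them, among them KDR and CDH5, lower for PECAM1 and CLDN5, and 0 for EMCN. The part of these markers in the THBD difference of Y19F from WT was not tested.

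PROCR, the receptor that presents protein C to thrombomodulin, did not pass the threshold in any comparison. PROCR (ENSG00000101000) lies at chr20:35172073-35216240 on the plus strand, and its canonical transcript has 4 exons. It was at 8.05, 9.38 and 11.1 CPM in WT libraries, 10.1, 13.1 and 12.4 in Ai libraries and 11.3, 11.4 and 13.1 in Y19F libraries, from 157 to 347 counts. The Y19F libraries all lay above the WT libraries, while Ai library 1 lay below WT library 3. The log2 fold changes, 0.32 ± 0.16 for Ai and 0.33 ± 0.16 for Y19F against WT, did not pass the threshold. The per kilobase level of THBD over that of PROCR was 0.606 ± 0.0814 (SD, n = 3) in WT, 1.14 ± 0.0558 in Ai and 0.668 ± 0.069 in Y19F cells. THBD RNA per kilobase thus exceeded that of PROCR in Ai cells but not in WT or Y19F cells.

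**Figure D1:**
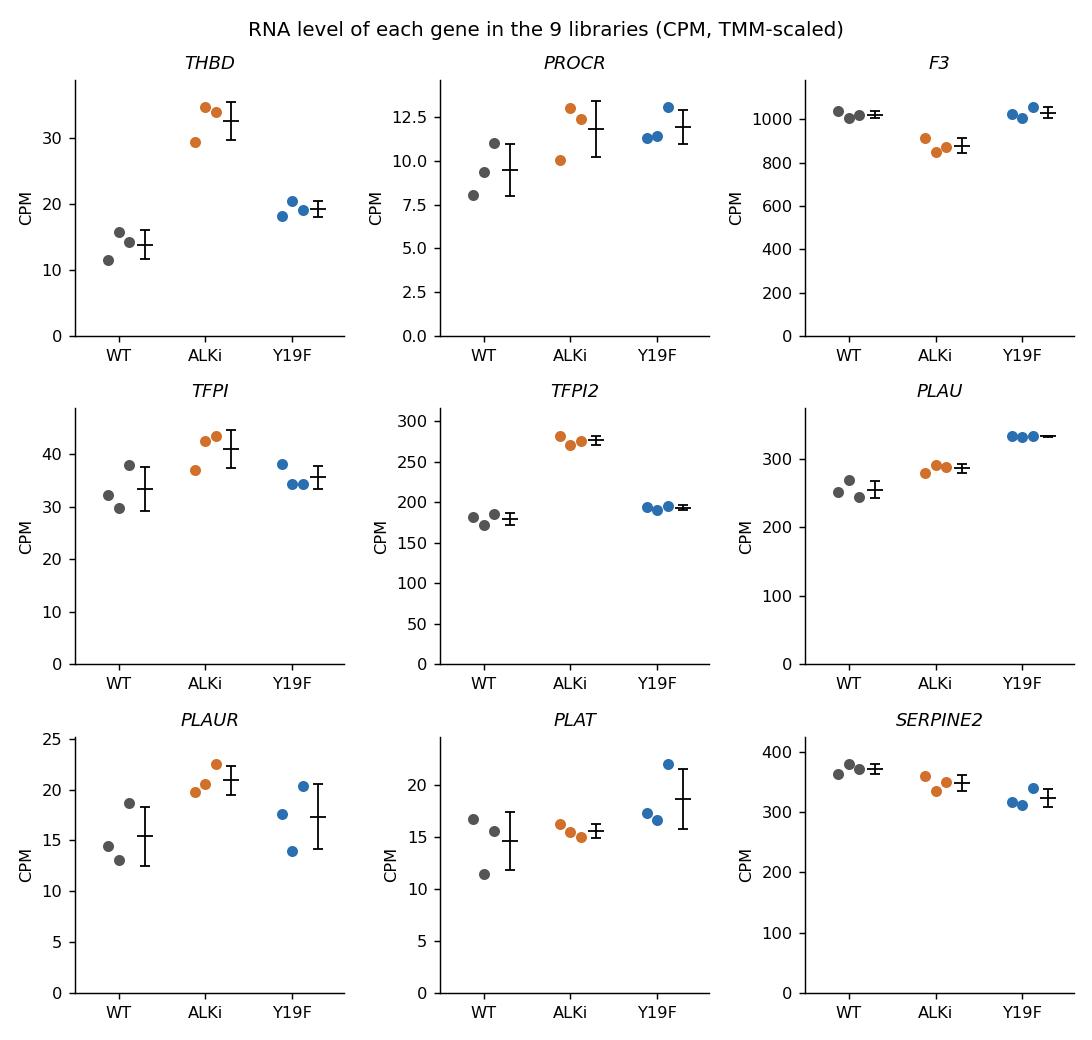
TMM-scaled CPM of the 9 genes (vertical axes, linear from 0) in WT, Ai (drawn as ALKi) and Y19F libraries. Each point is 1 library in order of replicate number, and the bar beside each group is the mean ± SD of 3 libraries. The THBD groups stand apart, TFPI2 is high in the 3 Ai libraries alone, F3 is low in them, and PLAU is lowest in WT and highest in Y19F libraries.

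F3, tissue factor, was the most abundant of the 9 genes and was lower with the inhibitor. F3 (ENSG00000117525) lies at chr1:94529225-94541800 on the minus strand, with 6 exons in its canonical transcript. Its counts ran from 15445 to 30370 over the 9 libraries. F3 was at 1041, 1007 and 1020 CPM in WT libraries, 916, 847 and 874 in Ai libraries and 1027, 1007 and 1056 in Y19F libraries. The Ai libraries lay below all others, and the WT and Y19F libraries overlapped. Means were 1022 ± 17.3 CPM in WT, 879 ± 34.4 in Ai and 1030 ± 24.9 in Y19F cells. The log2 fold changes were -0.22 ± 0.03 for Ai against WT, 0.01 ± 0.03 for Y19F against WT and 0.23 ± 0.03 for Y19F against Ai.

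TFPI2 showed the opposite direction with the inhibitor. TFPI2 (ENSG00000105825) lies at chr7:93885396-93890991 on the minus strand, with 5 exons. It was at 182, 171 and 186 CPM in WT libraries, 282, 271 and 275 in Ai libraries and 195, 190 and 196 in Y19F libraries, from 3250 to 5947 counts. The Ai libraries stood well above the rest, and the Y19F libraries lay just above the WT libraries without overlap. TFPI2 RNA was 1.54-fold higher in Ai than in WT cells, with a log2 fold change of 0.62 ± 0.04. The log2 fold change of Y19F against WT, 0.11 ± 0.04, did not pass the threshold with TMM scaling but did with upper quartile scaling and with library size alone, where it was 0.13. Between Y19F and Ai, the log2 fold change of TFPI2 was -0.51 ± 0.04.

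TFPI, the circulating and cell-bound inhibitor of the tissue factor complex, varied within groups. TFPI (ENSG00000003436) lies at chr2:187464230-187565760 on the minus strand, with 8 exons. It was at 32.3, 29.8 and 38.0 CPM in WT libraries, 37.0, 42.6 and 43.6 in Ai libraries and 38.1, 34.4 and 34.3 in Y19F libraries, from 565 to 1127 counts. WT library 3 lay above Ai library 1, so the groups overlapped. The log2 fold change of Ai against WT, 0.30 ± 0.10, did not pass the threshold, but it did without WT library 3, without Ai library 1 and with library size alone, at 0.40, 0.37 and 0.32. For Y19F against WT it was 0.10 ± 0.10.

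The ratio of tissue factor RNA to the RNA of TFPI and TFPI2 differed accordingly. The sum of these 2 genes was mostly TFPI2. TFPI, which blocks the tissue factor complex, was not called in any comparison of the reported fit. Per kilobase of gene length, F3 stood at 356 CPM, TFPI2 at 67.0 and TFPI at 2.85 in WT cells. The ratio of F3 to the sum of TFPI and TFPI2 was 5.10 ± 0.196 in WT, 2.87 ± 0.0631 in Ai and 4.77 ± 0.0685 in Y19F cells. The Ai libraries held lower ratios than all other libraries. F3 over TFPI alone was 126 ± 14.9 in WT, 87.9 ± 11.2 in Ai and 118 ± 7.9 in Y19F cells. The ratio of F3 to TFPI2 alone was 5.31 ± 0.185, 2.97 ± 0.0558 and 4.97 ± 0.0617 in the same order, and that of F3 to THBD was 108 ± 19.4, 38.8 ± 5.12 and 76.7 ± 5.69. The size of these ratios depends on the listed gene lengths. They set RNA levels side by side and say nothing of protein or activity.

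**Figure D2:**
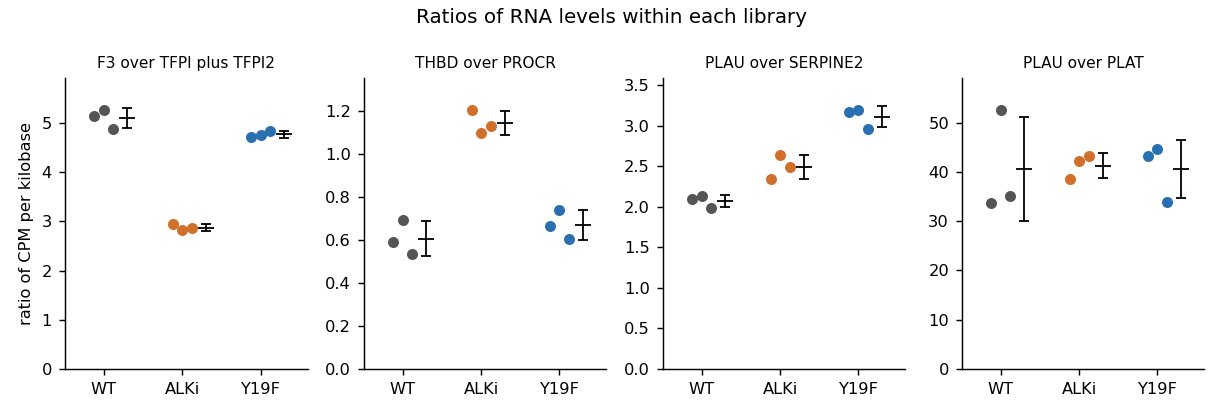
Ratios of CPM per kilobase (vertical axes, linear from 0) for 4 pairs of genes or sums in each library, with group means ± SD of 3 libraries. F3 over TFPI plus TFPI2 is lowest in the 3 Ai (ALKi) libraries, and THBD over PROCR is highest there. PLAU over SERPINE2 is highest in Y19F libraries, and PLAU over PLAT overlaps between all groups.

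PLAU, urokinase, was higher in both groups than in WT cells, and most so in Y19F cells. PLAU (ENSG00000122861) lies at chr10:73909177-73917497 on the plus strand, with 11 exons. It was at 251, 269 and 245 CPM in WT libraries, 279, 292 and 289 in Ai libraries and 334, 331 and 333 in Y19F libraries, from 4581 to 9873 counts. The 3 groups did not overlap, and the Y19F libraries differed from each other by little, with an SD of 1.34 CPM around a mean of 333. The log2 fold change of PLAU was 0.38 ± 0.04 for Y19F against WT and 0.22 ± 0.04 for Y19F against Ai. For Ai against WT it was 0.17 ± 0.04, and it lost its call without WT library 1, WT library 3, Ai library 2 or Ai library 3, at 0.14 to 0.16. The 82 tested genes within 5 Mb of PLAU had median log2 fold changes of 0.17 for Y19F against WT, 0.17 for Y19F against Ai and 0.0025 for Ai against WT, and the part of this regional difference in the PLAU values was not tested. Exons of C10orf55 on the opposite strand cover 31% of the PLAU exons. C10orf55 was counted separately, at 22 to 127 counts per library, and whether the counting used strand is not given in the sources used here. Opposite-strand exons also cover 12.8% of PROCR, by a gene at 0 counts, 1.8% of TFPI2, by GNGT1 at 0 to 1 counts, and 1.01% of TFPI.

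PLAUR, the urokinase receptor, was higher in the Ai than in the WT libraries without passing the threshold. PLAUR (ENSG00000011422) lies at chr19:43646095-43670547 on the minus strand, with 7 exons. It was at 14.5, 13.1 and 18.6 CPM in WT libraries, 19.7, 20.5 and 22.5 in Ai libraries and 17.6, 14.01 and 20.4 in Y19F libraries, from 248 to 541 counts. All Ai libraries lay above all WT libraries, and the Y19F libraries overlapped with both groups. The log2 fold change of Ai against WT, 0.44 ± 0.14, did not pass the threshold, but it did without WT library 3, where it was 0.61, and without a filter on low counts, at 0.44. For Y19F against WT it was 0.17 ± 0.14, with values from 0.05 without Y19F library 3 to 0.34 without WT library 3.

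PLAT, tissue plasminogen activator, did not pass the threshold in any comparison. PLAT (ENSG00000104368) lies at chr8:42175233-42207724 on the minus strand, with 14 exons. It was at 16.8, 11.4 and 15.6 CPM in WT libraries, 16.3, 15.5 and 14.97 in Ai libraries and 17.3, 16.6 and 22.0 in Y19F libraries, from 217 to 584 counts. WT library 2 was the lowest and Y19F library 3 the highest. The log2 fold change was 0.35 ± 0.14 for Y19F against WT, and without WT library 1 it passed the threshold at 0.47. For Ai against WT it was 0.09 ± 0.14, which became -0.05 without WT library 2. The per kilobase ratio of PLAU to PLAT was 40.5 ± 10.6 in WT, 41.3 ± 2.51 in Ai and 40.6 ± 5.82 in Y19F cells.

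SERPINE2, protease nexin-1, was the 1 gene of the 9 that was called lower in Y19F than in WT cells. SERPINE2 (ENSG00000135919) lies at chr2:223975112-224039319 on the minus strand, with 9 exons. It was at 362, 379 and 371 CPM in WT libraries, 360, 334 and 350 in Ai libraries and 317, 312 and 339 in Y19F libraries, from 6093 to 9379 counts. Every Ai and Y19F library lay below every WT library, while Y19F library 3 lay above Ai library 2. The log2 fold change was -0.20 ± 0.04 for Y19F against WT. It was -0.09 ± 0.04 for Ai against WT and -0.11 ± 0.04 for Y19F against Ai, and neither passed the threshold. PLAU over SERPINE2, per kilobase, was 2.07 ± 0.0748 in WT, 2.48 ± 0.147 in Ai and 3.11 ± 0.131 in Y19F cells, with no overlap between the groups.

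Set side by side, the 9 genes took different directions in the comparisons, which share the WT libraries as controls. A gene was called where edgeR's quasi-likelihood test gave a Benjamini-Hochberg adjusted p under 0.05 over all 16350 genes. For Ai against WT, THBD, TFPI2 and PLAU were called higher and F3 lower, where 1.82% of all tested genes were called higher and 2.73% lower. For Y19F against WT, THBD and PLAU were called higher and SERPINE2 lower, against 7.61% and 10.4% of all tested genes. In the direct comparison of Y19F with Ai, F3 and PLAU were called higher and THBD and TFPI2 lower, against 9.57% and 11.1%. The groups did not overlap for 6 of the 9 genes between Ai and WT, for 5 between Y19F and WT and for 5 between Y19F and Ai, where 19.6%, 32.6% and 34.4% of all tested genes did not. Since the genes were chosen with these values known, nothing is read from these counts. The median log2 fold change of the 9 genes was 0.30, 0.17 and -0.11 in the 3 comparisons, beside -0.001, 0.0035 and 0.0018 over all tested genes. Apart from PLAU, the median of tested genes within 5 Mb of each gene lay between -0.12 and 0.09 in every comparison.

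**Figure D3:**
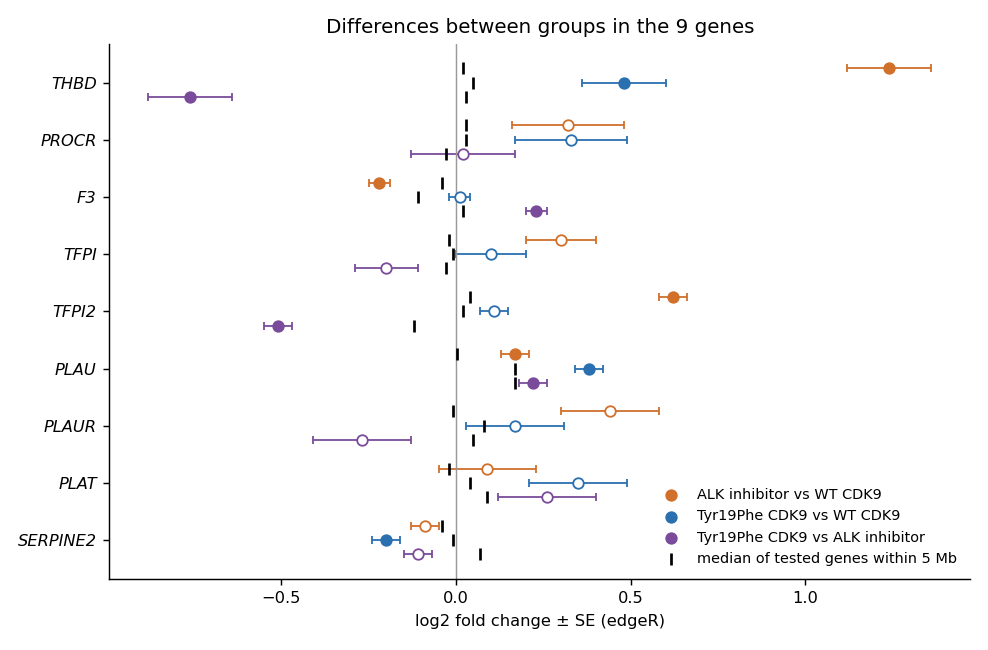
Log2 fold changes ± SE from edgeR (horizontal axis) of the 9 genes in the 3 comparisons. Filled points were called at an adjusted p under 0.05, open points were not, and black ticks mark the median of tested genes within 5 Mb. THBD and TFPI2 lie furthest to the right for Ai against WT, F3 lies to the left, and only for PLAU does the local median reach 0.17.

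Levels between genes were compared per kilobase of the listed gene length, and the order depends on that length. For TFPI it is 11714 bases, as many as all its annotated exons together. In WT cells F3 led at 356 CPM per kilobase, followed by PLAU at 86.4, TFPI2 at 67.0 and SERPINE2 at 41.7. The other 5 genes lay far lower, with PROCR at 5.60, PLAUR at 3.45, THBD at 3.37, TFPI at 2.85 and PLAT at 2.21. In Ai cells TFPI2, at 103 CPM per kilobase, stood above PLAU at 97.1, and THBD, at 7.94, stood above PROCR at 6.98. In Y19F cells the first 5 places were held in the WT order, and THBD, at 4.69, stood above PLAUR at 3.89. Within 1 SD of each group mean, PLAUR, THBD and TFPI could not be ordered in WT cells, nor TFPI and PLAT. The same held for THBD and PLAUR in Y19F cells. THBD and PROCR overlapped within 1 SD in Ai cells, although THBD was the higher in each Ai library. By contrast, TFPI2 and PLAU stood apart in Ai cells. Without division by length, F3 also led in WT cells, and SERPINE2, at 371 CPM, stood above PLAU at 255 and TFPI2 at 180. TFPI, at 33.4 CPM, then stood above PLAUR at 15.4, PLAT at 14.6, THBD at 13.8 and PROCR at 9.49.

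The genes whose pattern was most like that of THBD were sought over the 9 libraries by the root mean square difference of log2 CPM after each gene was centred on its mean. This distance was 0.227 for CGB7, 0.25 for TNC, 0.252 for CENPS, 0.259 for SIGLEC15 and 0.262 for DHRS4L2, the 5 closest of 16349 genes. THBD itself had a root mean square of 0.527 around its mean, the distance of a gene that did not vary. TNC encodes the matrix protein tenascin C, and SIGLEC15 encodes a sialic acid-binding receptor. TNC stood at 33.1 CPM in WT, 67.7 in Ai and 34.6 in Y19F cells. CGB7, CENPS and DHRS4L2 have near-identical or overlapping neighbours that counting could split, and their values are uncertain. Of the other 8 genes, TFPI2 was the closest at rank 19, with a distance of 0.298, and F3 the furthest at rank 11072.

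The wider pathway was read from 3 lists with 57 further genes, of which 29 passed the filter. The lists were drawn up with earlier results of these data known, so their calls and p-values are a description. The 28 others had at most 20 counts in any library. They included the fibrinogen genes FGA, FGB and FGG, with at most 3 counts, and F7, the ligand of tissue factor, also with at most 3. PLG, which encodes plasminogen, was at 0 in every library. Adjusted p-values below are from edgeR's quasi-likelihood test with Benjamini-Hochberg adjustment over all tested genes.

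For Ai against WT, 3 of the 29 genes rose and 0 fell, where 1.82% of all tested genes were called higher and 2.73% lower. All 3 were on the list headed coagulation factors, cofactors and receptors, of which 15 were tested. That list also holds related enzymes and carriers, and TGM2 is one of these enzymes rather than a clotting factor. TGM2, transglutaminase 2, rose by a log2 fold change of 0.53 ± 0.08 (adjusted p = 1.5e-05, edgeR), from 74.2 ± 3.31 to 107 ± 10.3 CPM. F2R, the thrombin receptor PAR1, rose by 0.25 ± 0.06 (adjusted p = 0.00771, edgeR), but not without WT library 3 or Ai library 2, at 0.21 and 0.18. F2RL2, the related receptor PAR3, rose by 1.02 ± 0.27 (adjusted p = 0.0217, edgeR), from 57 to 71 counts in WT to 84 to 166 in Ai libraries. The F2RL2 call was lost without WT library 1, WT library 3, Ai library 1 or Ai library 3. None of the 5 coagulation inhibitors or 9 plasminogen system genes passed the threshold. LRP1, the endocytic receptor for protease and inhibitor complexes, missed it at 0.24 ± 0.07 (adjusted p = 0.0515, edgeR). LRP1 passed it with each other scaling, both other filters, the replicate block, a fit of only the compared groups and DESeq2, and without WT library 1, where it was at 0.34 (adjusted p = 0.0105, edgeR). Without any 1 of the other WT or Ai libraries it did not pass, at adjusted p-values from 0.0638 to 0.272 from edgeR. The median over the 29 genes was 0.01.

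For Y19F against WT, 1 of the 29 genes rose and 7 fell, with a median of -0.06. Among all tested genes, 7.61% were called higher and 10.4% lower. Of the 15 tested genes on the coagulation list TGM2 rose, at 0.27 ± 0.08 (adjusted p = 0.0129, edgeR), but its groups overlapped. F2RL1, which encodes PAR2, the receptor cleaved by the tissue factor complex, fell by 0.42 on the log2 scale (SE 0.08, adjusted p = 8.16e-05, edgeR), from 86.7 ± 6.49 to 64.6 ± 4.20 CPM. F12, factor XII, fell by 1.75 (SE 0.54, adjusted p = 0.0198, edgeR), with 54, 35 and 39 counts in WT and 41, 13 and 3 in Y19F libraries. F12 was thus near the floor in Y19F library 3, and the fit that required 10 counts in every library did not hold it. LMAN1, a cargo receptor for factors V and VIII, fell by 0.12 (SE 0.04, adjusted p = 0.0438, edgeR).

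Of the 5 coagulation inhibitors ANXA5, a phospholipid-binding annexin, fell in Y19F by 0.20 on the log2 scale (SE 0.03, adjusted p = 5.75e-05, edgeR). Of the 9 plasminogen system genes, 3 fell. S100A10 and ANXA2, which together form a plasminogen-binding complex at the cell surface, fell by 0.26 (SE 0.05, adjusted p = 0.000255, edgeR) and by 0.12 (SE 0.03, adjusted p = 0.003, edgeR). LRP1 fell by 0.24 (SE 0.07, adjusted p = 0.019, edgeR).

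Calls of 4 genes in Y19F against WT were lost in some fits. F12 and LRP1 lost theirs without WT library 1, Y19F library 2 or Y19F library 3, when F12 was at -1.56, -1.54 and -1.25 and LRP1 at -0.14, -0.22 and -0.20. Without Y19F library 1, which held most of the F12 counts in that group, F12 was at -2.92. TGM2 lost its call without the same 3 libraries, at 0.24, 0.20 and 0.23. LMAN1 lost its call when any 1 of the WT libraries, Y19F library 2 or Y19F library 3 was left out, at -0.13 to -0.10. It also lost it with upper quartile scaling, library size alone, no filter on low counts and a fit of only the compared groups, at adjusted p-values of 0.102, 0.124, 0.114 and 0.0555 from edgeR. F2RL1, ANXA5, ANXA2 and S100A10 were called in each of the 6 fits with 1 library left out.

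Between Y19F and Ai directly, 0 of the 29 genes were higher and 8 were lower, with a median of -0.09. Among all tested genes, 9.57% were called higher and 11.1% lower. F2R was lower by a log2 fold change of -0.31 ± 0.06 (adjusted p = 0.000167, edgeR), F2RL2 by -0.85 ± 0.26 (adjusted p = 0.0195, edgeR) and TGM2 by -0.26 ± 0.08 (adjusted p = 0.0116, edgeR). F2RL1 was lower by -0.44 ± 0.08 (adjusted p = 4.57e-05, edgeR) and LRP1 by -0.48 ± 0.07 (adjusted p = 6.64e-06, edgeR). ANXA5 at -0.20, S100A10 at -0.16 and F12 at -1.73 were the remaining genes. Of these 8, F12 lost its call without Ai library 2, Ai library 3, Y19F library 2 or Y19F library 3, at -1.62 to -1.24, and was at -2.90 without Y19F library 1. F2RL2 lost it without Ai library 1, Ai library 3 or Y19F library 2, at -0.84 to -0.61. TGM2 lost it without Ai library 1 or Y19F library 1, at -0.19 and -0.16, and S100A10 without Ai library 3, Y19F library 1 or Y19F library 3, at -0.15 to -0.11.

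**Figure D4:**
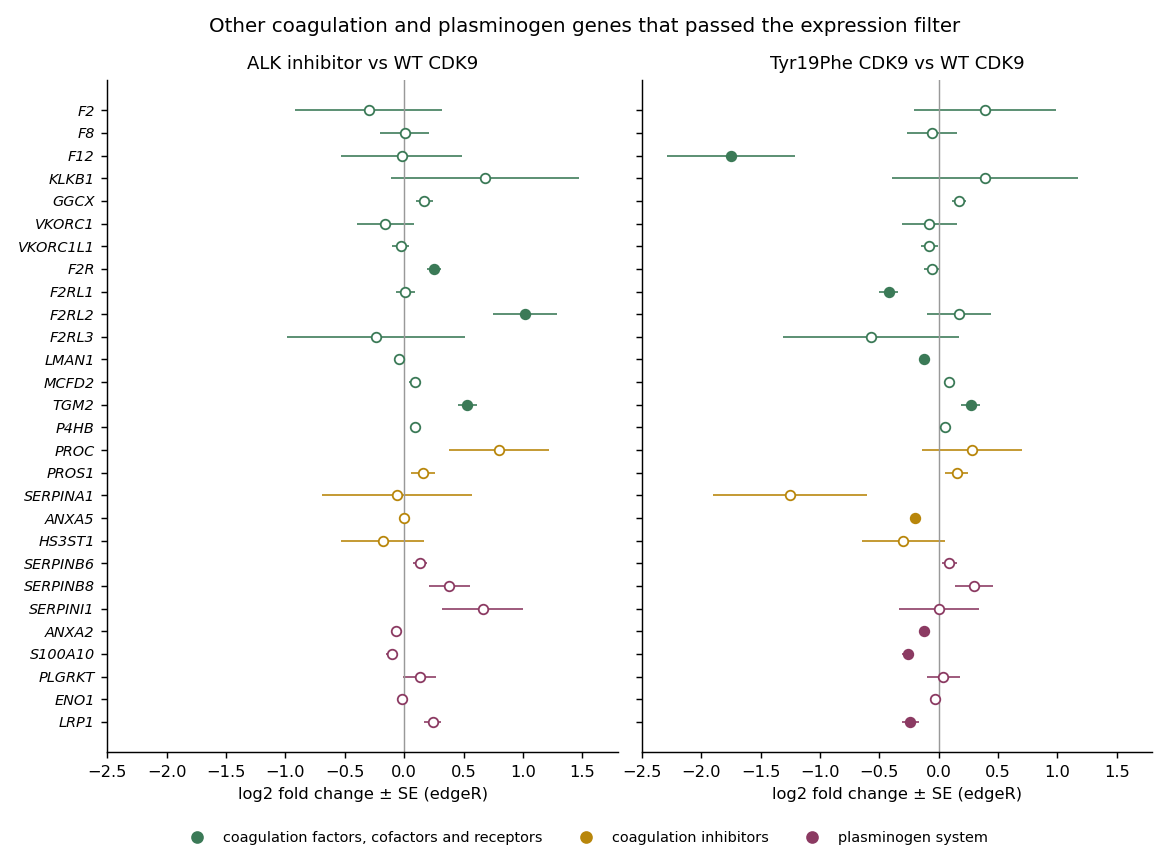
Log2 fold changes ± SE from edgeR (horizontal axes) of 28 of the 29 further pathway genes that passed the filter, for Ai against WT (left) and Y19F against WT (right), coloured by list. Filled points were called at an adjusted p under 0.05: 3 higher on the left, 1 higher and 7 lower on the right.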

How the data were processed

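RNA-seq libraries of SKOV3 cells, 3 per group, were grouped by the deposited labels. The submitters' processing notes name CASAVA, HISAT2 2.0.5 and featureCounts 1.5.0-p3 with GRCh38. The authors deposited whole-number read counts per gene without normalization, beside each gene's position and length. In R 4.3.3, edgeR 4.0.16 (with limma 3.58.1) filtered genes by filterByExpr (minimum count 10, minimum total 15), applied TMM scaling and fitted 1 mean per group to all 9 libraries (6 residual degrees of freedom). SE is the log2 fold change divided by the square root of the F statistic. CPM per kilobase used the listed gene length, and likeness to THBD used log2 CPM with a prior count of 2. Tables and figures were made in Python 3.11.15 (pandas 2.3.3, numpy 2.4.6, matplotlib 3.10.9).

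The 9 genes, the 3 pathway lists and the marker lists were chosen with earlier results of these data known. The genes named were these 9, every list gene called in any comparison, up to 6 per list and comparison, and the 5 genes most like THBD. A further gene that the rule names is not reported here, and the list counts hold it. Exons and canonical starts came from GENCODE 44, and promoters from RefSeq. Over all tested genes, deviations from the group means showed little correlation in libraries numbered alike (from -0.0116 to 0.026). This does not exclude pairing, and the reported fit did not pair the libraries. Counting depth limits only low genes, and the floor of 3 counts covers counting error only. Mean squared differences between libraries of a group were 4.36 to 9.26 times the counting variance, so no library was a copy. The code was tested on simulated counts for Ai against WT. Of 100 genes changed by 0.5 on the log2 scale 49% were recovered, and of 100 changed by 1 69%, with 8 false calls. A gene that was not called may therefore still differ. Alternatives were other scalings, filters, thresholds, DESeq2 1.42.0, a replicate block, the compared groups alone, and each library left out.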

Additional observations from a re-analysis of the deposited data

How the results depend on the processing

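Of 432 recomputed values of the 9 genes, 402 kept their direction and side of the threshold, 20 passed it anew, 6 no longer did and 4 changed sign. The 4 came with 1 library left out, where PLAT ranged from -0.05 to 0.21 for Ai against WT, F3 from -0.0011 to 0.03 for Y19F against WT, and PROCR from -0.09 (without Ai library 1) to 0.09 for Y19F against Ai, also turning at -0.05 without Y19F library 3. None of these were called. Of 477 values of the further pathway genes named, 407 kept direction and side, 13 passed the threshold anew, 45 no longer did and 12 changed sign, none of the 12 called. For Ai against WT, ANXA5 was at 0.01 with upper quartile scaling and 0.02 with library size alone, and F12 at 0.01 with library size alone and 0.08 with the replicate block. With 1 library left out, ANXA5 ranged from -0.03 to 0.02, F12 from -0.16 to 0.21 and F2RL1 from -0.08 to 0.08 for Ai against WT, and F2RL2 from -0.05 to 0.42 for Y19F against WT. SERPINE2 was called lower in Y19F than in Ai cells with DESeq2 and without Ai library 2 or Y19F library 3. The causes were not tested.

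Among all tested genes, an unadjusted p under 0.05 called 2473, 4739 and 5145 genes for Ai against WT, Y19F against WT and Y19F against Ai, and an adjusted p under 0.01 called 427, 1850 and 2088, where 744, 2940 and 3387 were called as reported. Of the 9 genes, an unadjusted p under 0.05 called 7 for Ai and 6 for Y19F against WT. Of the further pathway genes for Ai against WT, 5 were called with library size alone, 6 with DESeq2 and 11 at an unadjusted p under 0.05, against 3, and an adjusted p under 0.01 called 4 in each Y19F comparison, against 8. Leaving out 1 library at a time gave 491 to 608, 2180 to 2623 and 2622 to 2961 called genes in all, 3 to 5, 3 to 3 and 4 to 5 of the 9 genes, and 1 to 3, 4 to 8 and 5 to 7 further pathway genes. With library size alone, calls for Ai against WT split into 406 higher and 344 lower, against 297 and 447. For Y19F against WT they split into 1544 and 1451, and with upper quartile scaling into 1474 and 1483, against 1245 and 1695.

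Whether the replicate numbers mark pairs of libraries is not given, and the reported fit did not pair them. With the replicate number as a block, 5, 3 and 4 of the 9 genes and 4, 8 and 8 further pathway genes were called in the 3 comparisons, beside 818, 3076 and 3465 of the 16350 tested genes, PLAUR and LRP1 being added for Ai against WT at 0.46 and 0.25. Within 2 Mb in place of 5 Mb, local medians ran from -0.18 to 0.21. The value around TFPI2 was 0.11 for Ai against WT and -0.18 for Y19F against Ai, that around SERPINE2 -0.14 for Ai against WT, that around THBD 0.13 for Y19F against WT and that around PLAT 0.05 and 0.11 against WT.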
